A study of Mus musculus with 16 samples.

Results

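Epididymal white fat of mice fed a high-fat diet was compared with the same fat pad of mice fed chow, within the animals labelled WT. The comparison takes 8 of the 16 libraries of the series: 4 titled chow diet and WT, and 4 titled high fat diet and WT. They were chosen by those labels alone, and all genes with an Entrez number, 20101 in all, were read in each of them. Every library is total RNA from eWAT, the visceral fat pad attached to the epididymis, taken from a mouse of 21 weeks. The chow held 5% fat. The mice of the high-fat group were given food with 60% fat from 5 weeks of age onward. The remaining 8 libraries come from mice on the same 2 diets that are titled KO and carry ApoA4 knockdown as their genotype. They help to set the spread in the statistical model and are used as a reference at the end. The labels give 4 mice per group but no strain, sex, litter, weight or hour of sampling, and they do not say how the knockdown was made or whether the WT-labelled mice received a control for it.

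The gene named in the genotype field was read first. Apoa4, an apolipoprotein made mainly by the gut and liver, was listed at 0.29, 0.25, 0.23 and 0.09 FPKM in the 4 chow WT-labelled libraries and at 0.29, 0, 0.08 and 0 in the 4 high-fat WT-labelled libraries. In the KO-labelled libraries it lay higher, at 1.96 to 5.96 FPKM on chow and 4.93 to 9.63 on the high-fat diet, which goes against a reading of those labels as a loss of Apoa4 mRNA. The groups are therefore called WT-labelled and KO-labelled throughout. Within the WT-labelled mice the diet difference in Apoa4 did not pass the threshold (log2 change -0.16, adjusted p = 0.62). Below, "chow" and "high-fat" libraries are the WT-labelled ones unless stated otherwise, and values are listed in the order of replicates 1 to 4 of the labels.

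White fat stores triglyceride in adipocytes, each filled by a single large droplet, and releases fatty acids from it during fasting. Around the adipocytes lie progenitors, fibroblasts, blood vessels, mesothelium and immune cells, of which macrophages are the most numerous. In obesity, macrophages gather around dying adipocytes, take up their lipid and turn on genes for lysosomes, lipid handling and matrix turnover; these cells are known as lipid-associated macrophages and are marked by Trem2 and Cd9. Resident macrophages of lean fat are marked by Timd4, Lyve1 and Cd163. Obesity is also known to lower the adipocyte's insulin and catecholamine responses and to stiffen the tissue with collagen.

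A change is given as the difference of the mean log2(FPKM + 1), high-fat minus chow, so that 1 unit is a 2-fold difference for genes well above 1 FPKM and less than the true ratio for weak ones. FPKM are fragments scaled by transcript length and by the fragments mapped in the library. A gene is said to have risen or fallen where its adjusted p, from limma with Benjamini-Hochberg adjustment over 12667 genes, was under 0.05. Those 12667 genes reached 1 FPKM in at least 4 of the 16 libraries, and the other 7434 were not tested. By this rule 41.9% of the tested genes changed, 24.6% up and 17.2% down, and counts within gene lists are to be read against these shares. A bracket after a count gives the count where leaving out 1 library moved it by more than 1.5 times, for counts of 4 or more and a few smaller ones. In 46.9% of tested genes the 4 high-fat values all lay above or all below the 4 chow values. Changes of at least 4-fold were made by 339 genes upward and 150 downward, and changes of at least 16-fold by 19 and 9. The median change over all tested genes was 0.06. Of the changed genes 58.8% were higher; quantile normalization shifted the median of all genes by -0.104 and left 45.8% of its called genes higher, while median-of-ratios scaling left 52.9% and a constant sum per library 66.6%. Most genes named below follow from a fixed rule. Acp5, Apoc1, Arrdc3, Atp6v1a, Bcat1, Bnip3, Ccl9, Ckm, Cyp27a1 and Fdft1 were named after their values were seen. So were Gaa, Gatm, Gpd1, Metrnl, Myh4, Mylpf, Nnt, Tnnt3 and Ucp3.

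The 8 libraries had summed FPKM of 413167 to 468186 and 11632 to 12102 genes at 1 FPKM or more. Their relative depth, read from the smallest values above 0 among the circular RNA entries, ran from 0.927 to 1.229. The adipocyte markers that define the tissue were strong in every library: Adipoq, the hormone adiponectin, read 1909, 588, 413 and 1089 FPKM even in the high-fat group, where it had fallen, and Fabp4 3665 to 10795. Genes of the epididymis and testis, which mark tissue of the neighbouring organ, summed over their list to 9.79 to 73.9 FPKM in the chow libraries and 12.03, 17.6, 122 and 33.6 in the high-fat libraries. In chow library 1 Crisp1, an epididymal secretory protein, was the largest share; it read 27.1, 1.52, 0.5 and 1.25 FPKM in the chow libraries and 0.15, 0.05, 0.15 and 0.09 in the high-fat libraries. In the high-fat libraries the sum was mostly Lcn2, a lipocalin that immune cells and adipocytes also make, at 11.2, 17.2, 121 and 24.1 FPKM. Of the 8 members of that list that could be tested, none passed the limma threshold, nor an unadjusted p of 0.05. In 4 of the 8 every high-fat library lay below every chow library. The test shares its spread with KO-labelled libraries, in which the list summed to up to 15789 FPKM, and Crisp1 had an SE of 2.19. That test therefore cannot decide whether these genes differ by diet. Since the RNA is from whole tissue, fewer cells of a type and less RNA per cell cannot be told apart.

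Cell type markers moved between the diets as follows. Of 20 adipocyte genes, 13 fell and 1 rose (median log2 change -1.31). Their summed level was 55773 to 59589 FPKM in the chow libraries and 32549, 12142, 11057 and 20650.5 in the 4 high-fat libraries, so that high-fat libraries 2 and 3 held the least. Of 20 lipid-associated macrophage genes, 18 rose and none fell (median 2.87), though 1 fell in a fit of the 8 WT-labelled libraries alone and in some other alternatives. Their sum went from 3096 to 3469 FPKM to 6239, 13975, 17459 and 8467, with libraries 2 and 3 highest. The high-fat libraries thus stood in opposite orders on the 2 lists. Many of the gene groups described here moved along with these 2 lists, and others did not. The part of the 2 lists in those results was not tested.

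**Figure D1:**
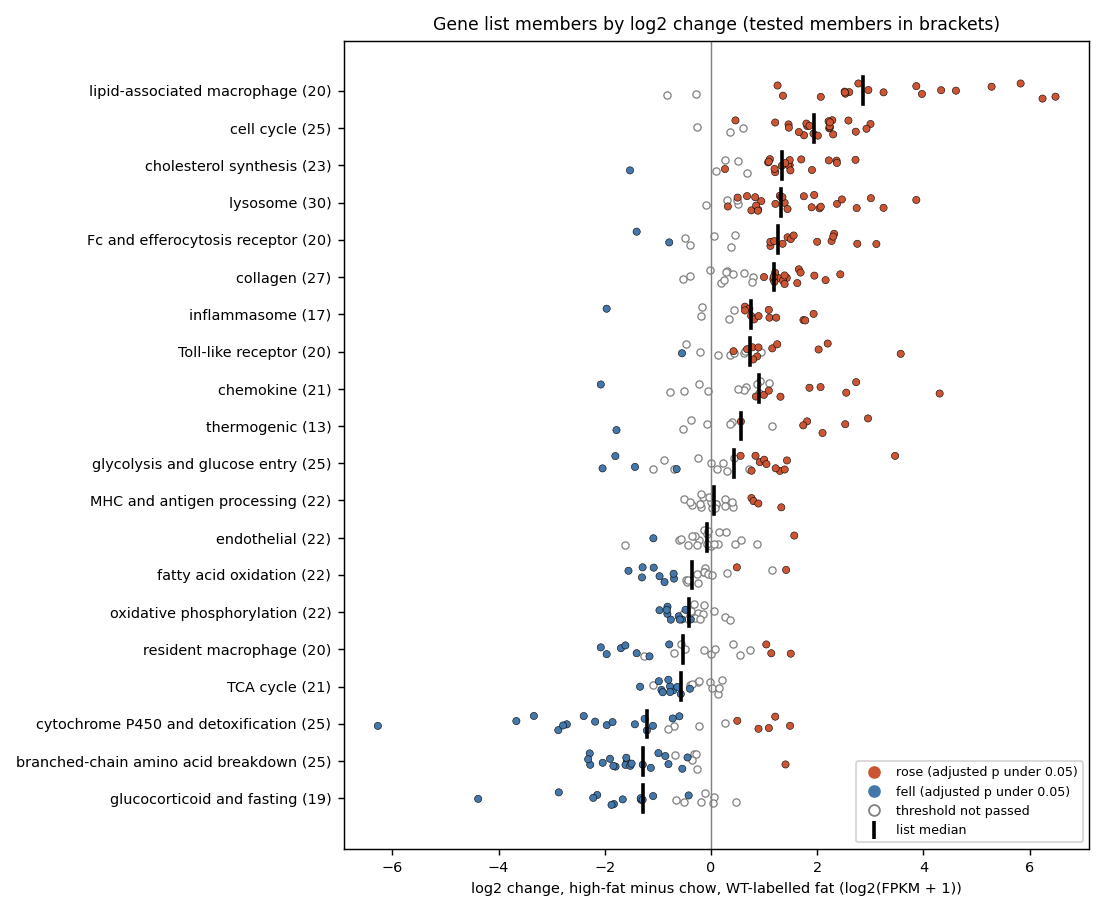
Log2 change, high-fat minus chow, of every tested member of 20 gene lists in WT-labelled fat; each point is 1 gene, filled where limma's adjusted p was under 0.05, and the short bar is the list's median. Lipid-associated macrophage, lysosome, cell cycle and cholesterol synthesis genes lie mostly to the right of 0, branched-chain amino acid and glucocorticoid genes to the left, and endothelial genes on both sides of it.

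The other cell types of fat moved less. Of 22 endothelial genes, 1 rose and 1 fell (median -0.08). The count up was 2 to 3 without chow library 1 or high-fat library 2. The count down was 0 without chow library 1, 2, 3 or 4 or high-fat library 2 or 3, and 2 without high-fat library 4. Pecam1, the adhesion molecule of endothelial junctions, lay at 46.5, 19.5, 22.4 and 29.6 FPKM in the chow libraries and 49.01, 14.6, 20.6 and 40.2 in the high-fat libraries, and these ranges overlap. Aplnr, the apelin receptor of sprouting vessels, was the member that rose (log2 change 1.57, adjusted p = 0.0125). Among 14 smooth muscle and pericyte genes, Notch3 (log2 change 1.21, adjusted p = 0.00225) and the NG2 proteoglycan gene Cspg4 (log2 change 1.204, adjusted p = 0.0014) rose and none fell. The mesothelial list, the sheet that covers the fat pad, had 7 of 16 members fall, among them Wt1, its transcription factor (log2 change -0.91, adjusted p = 0.010), and the glycoprotein gene Gpm6a (log2 change -1.09, adjusted p = 0.0015).

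T cell genes were low in all 8 libraries and several fell on the high-fat diet. Cd3e, a chain of the T cell receptor complex, read 4.16, 2.36, 3.49 and 4.48 FPKM in the chow libraries and 2.04, 0.44, 1.38 and 1.84 in the high-fat libraries, without overlap (log2 change -0.96, adjusted p = 0.011). Cd2, an adhesion receptor of T and NK cells, also fell (log2 change -1.39, adjusted p = 0.00057). Cd8a lay under 1 FPKM in every library and was not tested, and Foxp3, the factor of regulatory T cells, was at 0.11 to 0.38 FPKM on chow and 0.09 to 0.12 on the high-fat diet. Of the 13 T and NK genes tested, 4 fell (2 without chow library 1 or high-fat library 2). Another 2 rose (1 without chow library 1, 2, 3 or 4 or high-fat library 2, 3 or 4). The largest rise was that of Il7r, the interleukin 7 receptor, at 2.69, 2.59, 2.91 and 2.99 FPKM in the chow libraries and 19.96, 59.6, 50.8 and 36.9 in the high-fat libraries (log2 change 3.39, adjusted p = 3.4e-06). None of 8 B and plasma cell genes passed the limma threshold, nor an unadjusted p of 0.05. Of 12 granulocyte and mast cell genes 2 rose (0 to 5 without chow library 1 or 3 or high-fat library 1, 3 or 4) and 1 fell (2 without high-fat library 3). Cpa3, the mast cell carboxypeptidase, read 3.56, 3.75, 3.46 and 4.38 FPKM in the chow libraries and 3.22, 16.4, 44.6 and 27.6 in the high-fat libraries, so that high-fat library 1 lay just below the chow range while the other 3 lay above it (log2 change 1.88, adjusted p = 0.023; adjusted p = 0.0505 to 0.085 without chow library 3 or high-fat library 3 or 4 and log2 change 2.57 without high-fat library 1).

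Progenitor and fibroblast genes moved both ways, with 7 of 21 up (4 without high-fat library 2) and 4 down. Pdgfra, the receptor that marks them, did not pass the threshold at 22.8, 18.4, 24.2 and 21.2 FPKM in the chow libraries and 15.7, 21.8, 16.9 and 21.7 in the high-fat libraries (log2 change -0.19, adjusted p = 0.53). Lum, the collagen-binding proteoglycan lumican, rose (log2 change 1.603, adjusted p = 0.00084). Gsn, the actin-severing protein gelsolin, fell (log2 change -1.89, adjusted p = 0.0029), as did Dcn, the proteoglycan decorin (log2 change -0.79, adjusted p = 0.012).

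Within the adipocyte's lipid machinery, several storage and release genes fell while coat and carrier genes also found in macrophages rose. Plin2, which coats small lipid droplets in many cell types, lay at 94.8, 122, 109 and 121 FPKM in the chow libraries and 479.6, 1286, 1240.2 and 754 in the high-fat libraries. The 4 high-fat values were 8.43 times the chow values on average and did not overlap them (log2 change 2.96 ± 0.37 (SE), adjusted p = 5.4e-05). Its relative Plin1, the coat of the large adipocyte droplet, read 567, 428, 584 and 447 FPKM in the chow libraries and 583, 178, 152 and 379 in the high-fat libraries; high-fat library 1 lay within the chow range and libraries 2 and 3 lay far below it (log2 change -0.85, adjusted p = 0.13; adjusted p = 0.029 without high-fat library 1). Pnpla2, the lipase that opens triglyceride breakdown, read 1516, 1649.8, 1665 and 1674 FPKM in the chow libraries and 581, 307, 286 and 429.7 in the high-fat libraries, all below chow (log2 change -2.08 ± 0.34 (SE), adjusted p = 0.00039). Hilpda, a droplet protein that inhibits that lipase, rose (log2 change 1.59, adjusted p = 0.021; adjusted p = 0.056 to 0.075 without chow library 3 or high-fat library 2 or 3). Cidec, which fuses droplets into the single large one, fell (log2 change -1.45, adjusted p = 0.013), and so did Lipe, the hormone-sensitive lipase (log2 change -1.18, adjusted p = 0.036; adjusted p = 0.057 to 0.13 without chow library 1, 2, 3 or 4 or high-fat library 2 or 3). In all, 7 of 17 lipolysis and droplet genes fell and 3 rose. The falls numbered 2 to 3 without chow library 1, 2, 3 or 4 or high-fat library 2 or 3, and with a constant sum of FPKM per library 3 fell and 4 rose.

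The fatty acid carriers moved in opposite directions. Fabp4, the adipocyte carrier, read 14314, 15013, 14312 and 16176 FPKM in the chow libraries and 10795, 4613, 3665 and 7445 in the high-fat libraries, a fall (log2 change -1.298, adjusted p = 0.026; adjusted p = 0.054 to 0.093 without chow library 2 or 4 or high-fat library 2 or 3). Fabp5, its close relative, read 50, 54, 56.7 and 47.03 FPKM in the chow libraries and 255, 402, 369.7 and 276 in the high-fat libraries, a rise of 6.27 times between the means (log2 change 2.603 ± 0.26 (SE), adjusted p = 9.85e-06). The FPKM of Fabp4 exceeded that of Fabp5 by factors of 286, 278, 252 and 344 in the chow libraries and 42.2, 11.5, 9.91 and 27 in the high-fat libraries. Slc27a1, a fatty acid transporter of the adipocyte membrane, fell (log2 change -1.59, adjusted p = 0.00023). Cd36, the scavenger receptor that takes up fatty acids in adipocytes and macrophages alike, stayed at 1883 to 2554 FPKM against 1791 to 2081 on chow (log2 change 0.12, adjusted p = 0.69). Lpl, the lipase that frees fatty acids from lipoproteins, likewise did not pass the threshold (log2 change -0.28, adjusted p = 0.48).

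In fatty acid synthesis 2 desaturases moved in opposite directions. Scd1, which introduces the double bond of oleate and dominates in adipocytes, fell (log2 change -1.698, adjusted p = 0.0425; adjusted p = 0.058 to 0.14 without chow library 1, 2, 3 or 4 or high-fat library 2 or 3). Scd2, its relative found in many tissues, read 10.8, 7.2, 9.18 and 6.05 FPKM in the chow libraries and 279, 69.8, 38.1 and 115 in the high-fat libraries, a rise in all 4 libraries (log2 change 3.42 ± 0.69 (SE), adjusted p = 0.0015). Acacb, the mitochondrial acetyl-CoA carboxylase whose product blocks fatty acid entry into mitochondria, fell from 53.7, 68.5, 60.5 and 75.8 to 11.5, 8.49, 4.87 and 19.6 FPKM (log2 change -2.57, adjusted p = 0.00076). Fasn, the fatty acid synthase, did not pass the threshold (log2 change 0.11, adjusted p = 0.92), and the list as a whole had 3 members up and 4 down of 19. The count down was 1 to 2 without chow library 1, 2, 3 or 4 or high-fat library 2 or 3, and with a constant sum of FPKM per library 4 members were up and 2 down.

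Triglyceride assembly genes moved both ways. Mogat1, a monoacylglycerol acyltransferase, read 29.02, 26.8, 27.6 and 31.7 FPKM in the chow libraries and 5.35, 1.47, 0.71 and 4.41 in the high-fat libraries (log2 change -3.098 ± 0.46 (SE), adjusted p = 0.00017). Lpin1, the phosphatidate phosphatase, fell as well (log2 change -1.87, adjusted p = 0.0026). Gpd1, which makes glycerol phosphate from a glycolytic intermediate, went the other way at 101, 89.5, 106 and 83.4 FPKM in the chow libraries and 483, 236, 182 and 450.5 in the high-fat libraries, with no overlap (log2 change 1.71 ± 0.33 (SE), adjusted p = 0.0011). Gk, glycerol kinase, also rose (log2 change 1.75, adjusted p = 0.043; adjusted p = 0.071 to 0.080 without any 1 of the 8 libraries). Dgat2, which adds the last acyl chain, rose too (log2 change 1.62, adjusted p = 0.021; adjusted p = 0.058 to 0.060 without chow library 4 or high-fat library 1 or 4). Of 19 such genes 5 rose (1 to 3 without chow library 1, 2, 3 or 4 or high-fat library 1, 2 or 4) and 6 fell.

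**Figure D2:**
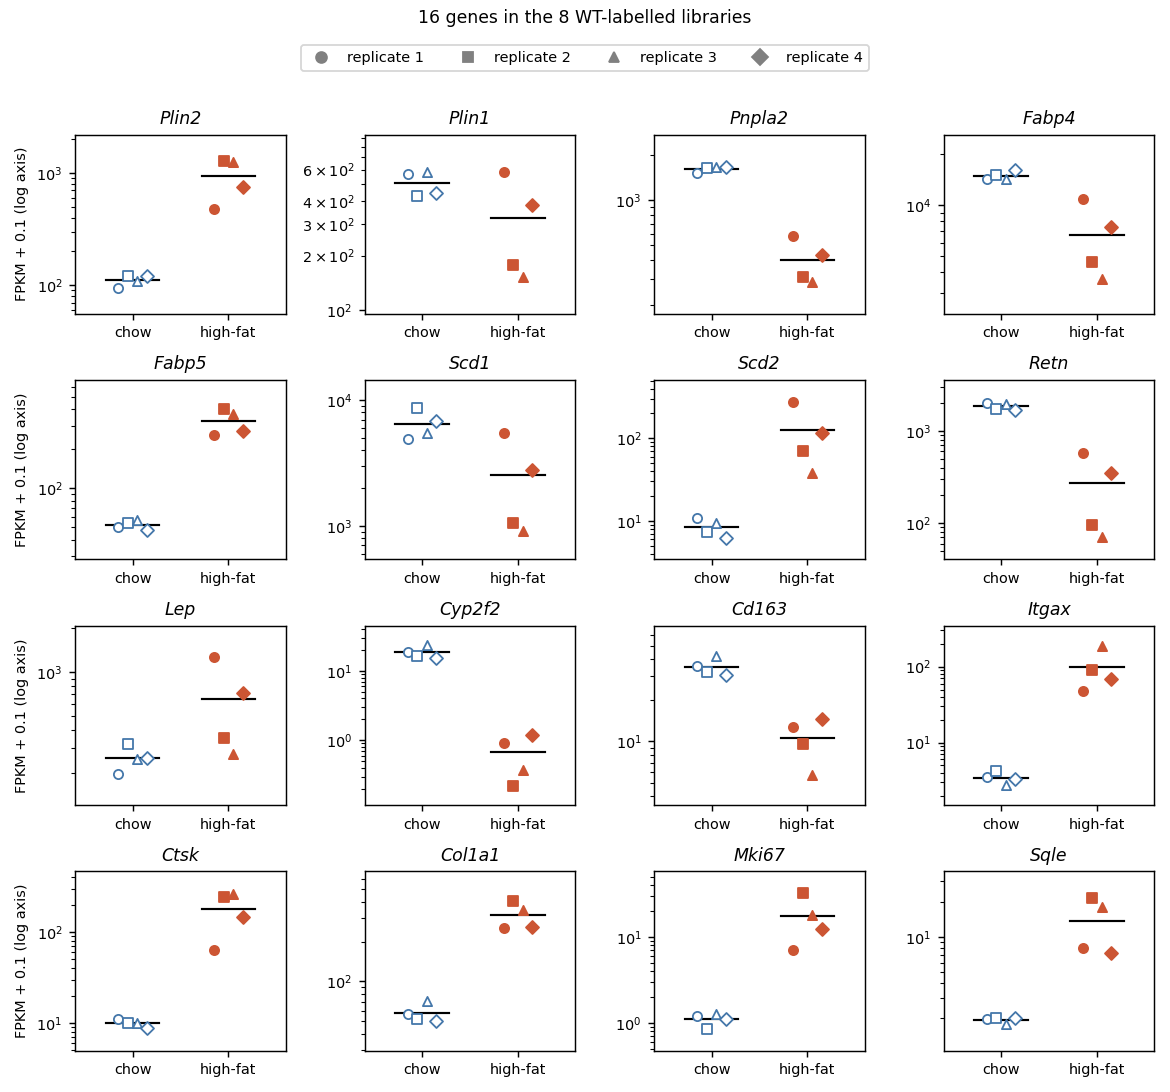
FPKM on a log axis (FPKM + 0.1) of 16 genes in the 4 chow (open) and 4 high-fat (filled) WT-labelled libraries, 1 point per library, with the replicate number of the label as the marker shape; bars are group means. Plin2, Fabp5 and Scd2 lie wholly above chow on the high-fat diet, Pnpla2, Retn and Cyp2f2 wholly below it, and high-fat replicate 1 lies nearest to chow in most of the genes that rose.

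Of 20 genes for factors that fat secretes 9 fell and 1 rose. Retn, the hormone resistin, read 1991, 1739, 1949.6 and 1661 FPKM in the chow libraries and 569.5, 96, 71.4 and 351 in the high-fat libraries (log2 change -3.24 ± 0.70 (SE), adjusted p = 0.0023), and high-fat libraries 2 and 3 kept the least of it. Rbp4, the retinol carrier, fell from 563 to 643 FPKM on chow to 46.2 to 248 (log2 change -2.62, adjusted p = 0.0033). Nrg4, a neuregulin that fat sends to the liver, fell too (log2 change -2.23, adjusted p = 0.0073). Metrnl, a secreted protein made by fat and activated macrophages, was the gene that rose, at 9.04, 8.87, 8.89 and 8.42 FPKM in the chow libraries and 16.5, 67.3, 55.9 and 34.4 in the high-fat libraries (log2 change 2.01, adjusted p = 0.00049). Lep, leptin, read 198, 319, 249 and 254 FPKM in the chow libraries and 1267, 348, 271 and 719.5 in the high-fat libraries: libraries 1 and 4 were high and libraries 2 and 3 lay near the top of the chow range (log2 change 1.105, adjusted p = 0.092; adjusted p = 0.0455 without high-fat library 3).

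Transcription factors that build and maintain adipocytes fell in 11 of 26 cases and none rose. Klf15, a Kruppel-like factor of fasting metabolism, read 50.5, 40.9, 51.6 and 34.1 FPKM in the chow libraries and 18.9, 4.07, 4.14 and 11.3 in the high-fat libraries (log2 change -2.32 ± 0.51 (SE), adjusted p = 0.0024). Ebf2 (log2 change -1.85, adjusted p = 5.5e-05) and Ebf1 (log2 change -1.41, adjusted p = 0.00066), early B cell factors that also act in adipocytes, both fell. Cebpa, which keeps adipocytes differentiated, fell less (log2 change -0.92, adjusted p = 0.0094). Cebpb did not pass the threshold (log2 change 0.58, adjusted p = 0.073).

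Catecholamine and cyclic AMP genes fell in 5 (8 without high-fat library 1) and rose in 2 of 24 cases. Adrb1, the beta-1 receptor, read 2.02, 1.54, 2.33 and 2.01 FPKM in the chow libraries and 1.75, 0.36, 0.45 and 1 in the high-fat libraries and did not pass the threshold (log2 change -0.71, adjusted p = 0.0705; adjusted p = 0.025 without high-fat library 1). Pde3b, the phosphodiesterase through which insulin lowers cyclic AMP, fell from 147 to 169 to 22.2 to 83.8 FPKM (log2 change -1.75, adjusted p = 0.0019). Gnai1, an inhibitory G protein subunit, fell (log2 change -1.76, adjusted p = 0.0046), and Adcy3, an adenylyl cyclase, rose (log2 change 1.44, adjusted p = 0.00044).

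Genes filed under thermogenesis rose more often than they fell, 6 against 1 of 13, and the largest rises were in genes of creatine and proton handling. Ckb, the brain-type creatine kinase, read 20.5, 16.9, 19.2 and 19.9 FPKM in the chow libraries and 56.7, 307, 285 and 115 in the high-fat libraries (log2 change 2.96 ± 0.55 (SE), adjusted p = 0.00087). Slc6a8, the creatine transporter, rose (log2 change 2.1, adjusted p = 0.0039), and so did Gatm, an enzyme of creatine synthesis (log2 change 1.74, adjusted p = 0.00023). Otop1, a proton channel, rose from 0.02 to 0.1 to 2.6 to 9.33 FPKM (log2 change 2.53, adjusted p = 0.00013). The uncoupling protein gene of brown fat, Ucp1, was below the filter and not tested. Its relatives parted: Ucp2 rose (log2 change 1.81, adjusted p = 0.00040) and Ucp3 fell (log2 change -1.78, adjusted p = 0.0037).

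Genes of mitochondrial fuel use fell in several lists. Of 22 fatty acid oxidation genes 8 fell (5 without high-fat library 3) and 2 rose; Eci1, an isomerase for unsaturated fatty acids, fell (log2 change -1.55, adjusted p = 0.00125), as did the hydratase gene Echs1 (log2 change -1.3, adjusted p = 0.0026). Cpt1a, the carnitine transferase that admits fatty acids, rose from 24.2 to 26.2 to 51.2 to 84.8 FPKM (log2 change 1.41, adjusted p = 0.0023). Of 21 citric acid cycle genes 11 fell and none rose. Suclg2, a succinyl-CoA ligase subunit, fell most among them (log2 change -1.34, adjusted p = 0.000235), followed by Sdha, a subunit of succinate dehydrogenase (log2 change -0.98, adjusted p = 0.00053). Respiratory chain subunits fell in 10 of 22 cases, by smaller amounts; Ndufv1, a subunit of complex I, had the largest drop (log2 change -0.97, adjusted p = 0.0016). Breakdown of branched-chain amino acids, a fuel of mature adipocytes, had 19 of 25 genes down and a median of -1.28, against -0.35, -0.57 and -0.41 for the 3 lists before it. Hsd17b10, the dehydrogenase of isoleucine breakdown, read 226, 221, 244 and 239.6 FPKM in the chow libraries and 56.6, 41.8, 37.8 and 50.1 in the high-fat libraries (log2 change -2.31 ± 0.17 (SE), adjusted p = 1.2e-06). Bcat1, the cytosolic branched-chain aminotransferase, was the member that rose (log2 change 1.403, adjusted p = 0.00060).

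Of 25 glycolysis and glucose entry genes 11 rose (7 without high-fat library 3) and 4 fell (7 without high-fat library 1). Hk3, a hexokinase of myeloid cells, read 1.87, 1.91, 1.82 and 1.9 FPKM in the chow libraries and 9.46, 54.4, 68.02 and 24.5 in the high-fat libraries (log2 change 3.47 ± 0.47 (SE), adjusted p = 0.00011). Slc2a3, a neuronal and leukocyte glucose transporter, fell (log2 change -2.04, adjusted p = 0.00073), and so did Ldhb, the lactate dehydrogenase of oxidative tissue (log2 change -1.801, adjusted p = 0.0055). Pfkfb1, a regulator of phosphofructokinase, fell as well (log2 change -1.43, adjusted p = 0.010). The insulin signalling list held 22 tested genes, of which 9 fell and 4 rose (2 without chow library 2 or 4 or high-fat library 2, 3 or 4). Ptpn1, the phosphatase that silences the insulin receptor, was among those that rose (log2 change 1.23, adjusted p = 0.010), at 13.1, 9.88, 9.44 and 11.4 FPKM in the chow libraries and 14.7, 27.2, 56.3 and 22.9 in the high-fat libraries.

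Glucocorticoid and fasting targets fell in 12 of 19 cases with none rising (median -1.29). Hsd11b1, the enzyme that regenerates active glucocorticoid inside fat, read 75.4, 112, 92.2 and 87.5 FPKM in the chow libraries and 45.6, 8.63, 12.5 and 24.1 in the high-fat libraries (log2 change -2.22 ± 0.55 (SE), adjusted p = 0.0050). Zbtb16, a zinc finger gene induced by glucocorticoids, fell from 50.8 to 66.7 to 6.93 to 22.04 FPKM (log2 change -2.14, adjusted p = 0.00115). Sult1a1, a phenol sulfotransferase, fell (log2 change -2.87, adjusted p = 0.000225). The standard targets Fkbp5, a chaperone of the receptor (log2 change -1.66, adjusted p = 0.012), and Tsc22d3, the leucine zipper GILZ (log2 change -1.32, adjusted p = 0.00093), also fell, and the receptor gene itself, Nr3c1, fell by less (log2 change -0.42, adjusted p = 0.030; adjusted p = 0.053 to 0.088 without chow library 1, 3 or 4 or high-fat library 2 or 3). Whether the chow WT-labelled mice stood apart from the chow KO-labelled ones on this list is taken up at the end.

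Clock genes fell in 7 of 19 cases (3 to 4 without chow library 3 or high-fat library 2 or 3). Per1, a repressor of the clock, read 38.5, 37.3, 43.3 and 39.9 FPKM in the chow libraries and 13.3, 6.33, 12.8 and 10.9 in the high-fat libraries (log2 change -1.83, adjusted p = 0.00055). Nr1d1, which encodes REV-ERB alpha, fell with it (log2 change -1.71, adjusted p = 0.0021). Arntl, the activator that peaks when those are low, was the member that rose (log2 change 0.49, adjusted p = 0.040; adjusted p = 0.075 to 0.12 without chow library 1 or 3 or high-fat library 1, 2 or 3). The hour at which the fat was taken is not in the labels, so these values describe the mice as sampled.

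Detoxification genes showed some of the largest drops of the comparison, with 16 of 25 down, 5 up (3 without chow library 2 or 4 or high-fat library 1) and a median of -1.21. Cyp2f2, a cytochrome P450 known from the lung, read 18.9, 16.5, 23.4 and 15.4 FPKM in the chow libraries and 0.8, 0.12, 0.27 and 1.09 in the high-fat libraries (log2 change -3.67 ± 0.46 (SE), adjusted p = 5.8e-05). Ces1d, a carboxylesterase that also hydrolyses triglyceride, fell from 674 to 925 to 35.5 to 199 FPKM (log2 change -3.33, adjusted p = 0.0015); it belongs to a cluster of near-identical genes, and reads may have been shared among them. Gsta3, a glutathione transferase, and Gpx3, the secreted glutathione peroxidase, led the antioxidant genes that fell (log2 change -3.06, adjusted p = 0.0010 and log2 change -2.87, adjusted p = 0.0015, respectively). Hmox1, heme oxygenase, went up at 24.5, 26.9, 25.9 and 24.1 FPKM in the chow libraries and 60.7, 117, 632 and 129.6 in the high-fat libraries, with high-fat library 3 far above the other 3 (log2 change 2.58 ± 0.70 (SE), adjusted p = 0.00935; log2 change 1.904 without high-fat library 3). In that list 8 of 26 genes fell and 5 rose.

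Of 20 resident macrophage genes 7 fell and 3 rose (0 without chow library 1, 2, 3 or 4 or high-fat library 2, 3 or 4). Timd4, a receptor for dying cells on resident macrophages, read 5.18, 2.72, 2.82 and 3.59 FPKM in the chow libraries and 0.46, 0.7, 0.42 and 1.36 in the high-fat libraries (log2 change -1.4 ± 0.24 (SE), adjusted p = 0.00044). Cd163, the hemoglobin scavenger receptor, read 35.2, 31.9, 42.1 and 30.4 FPKM in the chow libraries and 12.7, 9.49, 5.57 and 14.5 in the high-fat libraries (log2 change -1.696 ± 0.24 (SE), adjusted p = 0.00015). Lyve1 fell as well (log2 change -1.16, adjusted p = 0.011). Cd209b, a lectin, lay at 0.55 to 2.99 FPKM against 6.49 to 8.45 on chow (log2 change -1.61, adjusted p = 0.0010). Every high-fat library lay below every chow library in these 4 genes. The mannose receptor Mrc1, often used with them, rose instead (log2 change 1.14, adjusted p = 0.037; adjusted p = 0.053 to 0.11 without chow library 1, 2, 3 or 4 or high-fat library 2, 3 or 4).

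Genes of lipid-associated macrophages rose. Itgax, the integrin CD11c, read 3.47, 4.12, 2.68 and 3.19 FPKM in the chow libraries and 47.5, 91.6, 186 and 68.3 in the high-fat libraries (log2 change 4.33 ± 0.36 (SE), adjusted p = 2.5e-06). Lgals3, a lectin of activated macrophages, read 61.1, 90.6, 83.2 and 59.8 FPKM in the chow libraries and 520.2, 2027, 1711 and 975 in the high-fat libraries (log2 change 3.97 ± 0.38 (SE), adjusted p = 7.9e-06). Cd9, a membrane tetraspanin, rose from 18.8 to 26.1 to 71.5 to 265 FPKM (log2 change 2.78, adjusted p = 0.000675). Acp5, the tartrate-resistant phosphatase on the same list, did not follow: it read 252, 283, 302 and 281 FPKM in the chow libraries and 184, 149, 127 and 174 in the high-fat libraries and did not pass the threshold although its groups did not overlap (log2 change -0.83, adjusted p = 0.083). Monocyte genes rose in 5 of 14 cases, but their defining receptor gene Ccr2 lay at 18.8, 15.1, 16.8 and 15.7 FPKM in the chow libraries and 22.9, 18.5, 24.9 and 15.3 in the high-fat libraries (log2 change 0.26, adjusted p = 0.58) and Ly6c2 at 5.25, 2.89, 3.98 and 3.52 FPKM in the chow libraries and 2.46, 2.03, 4.94 and 3.31 in the high-fat libraries (log2 change -0.26, adjusted p = 0.47), both overlapping between diets. Of 11 dendritic cell genes 2 rose and 3 fell; Cadm1, an adhesion molecule, led the risers (log2 change 3.29, adjusted p = 0.00039).

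Lysosomal genes rose almost without exception, 26 of 30 with none falling (median 1.31). Ctsk, a protease that digests collagen, read 10.8, 9.89, 9.98 and 8.66 FPKM in the chow libraries and 63.7, 246, 261 and 146 in the high-fat libraries (log2 change 3.87 ± 0.35 (SE), adjusted p = 4.6e-06). Lipa, the acid lipase that frees cholesterol and fatty acids from engulfed lipid, read 27.98, 30.3, 33.1 and 28.6 FPKM in the chow libraries and 120.2, 446, 579 and 238 in the high-fat libraries (log2 change 3.25 ± 0.43 (SE), adjusted p = 9.3e-05). Proton pump subunits rose too, among them Atp6v1a (log2 change 1.94, adjusted p = 0.00015). The master regulator of lysosomal genes, Tfeb, rose modestly at 5.8, 6.3, 6.02 and 5.1 FPKM in the chow libraries and 7.23, 21.7, 19.3 and 15.2 in the high-fat libraries (log2 change 1.21, adjusted p = 0.0029), and its relative Mitf did not pass the threshold (log2 change 0.49, adjusted p = 0.12; adjusted p = 0.0075 without high-fat library 1). TFEB and MITF are known to bind the 7 letters TCACGTG in lysosomal promoters. Those letters, or CACGTGA where the match is on the opposite strand, searched on both strands of the 250 bases before the RefSeq start (GRCm38.p6) with overlapping matches merged, were present in 7 of the 22 list members found in the promoter table, or 31.8%. They were present in 5.78% of the 10110 tested genes with a promoter, in 6.70% of those that rose and in 4.76% of those that fell. Of the 7, 6 rose and Gaa, acid alpha-glucosidase, did not pass the threshold (log2 change -0.09, adjusted p = 0.58). None of 15 lipid-associated macrophage genes in the table held the letters. The 4 promoters below show where the matches lie in genes of different sizes of rise: Gla, alpha-galactosidase (log2 change 2.74, adjusted p = 0.00011), Atp6v1a, Ctsd, cathepsin D (log2 change 1.75, adjusted p = 0.0039), and Lamp1, the main lysosomal membrane protein (log2 change 0.76, adjusted p = 0.010). Capitals mark the matches, each sequence is written 5′ to 3′ on the strand of its gene, and a match is a description of the letters, not evidence of binding.
The windows are chrX:134601006-134601255 on the minus strand for Gla, chr16:44139260-44139509 on the minus strand for Atp6v1a, chr7:142387828-142388077 on the minus strand for Ctsd and chr8:13158911-13159160 on the plus strand for Lamp1.
Gla: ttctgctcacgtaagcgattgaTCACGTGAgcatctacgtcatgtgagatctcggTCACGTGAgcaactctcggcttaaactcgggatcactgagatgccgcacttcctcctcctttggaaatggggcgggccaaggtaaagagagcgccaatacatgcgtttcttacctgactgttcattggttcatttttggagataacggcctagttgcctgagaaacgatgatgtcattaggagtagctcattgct
Atp6v1a: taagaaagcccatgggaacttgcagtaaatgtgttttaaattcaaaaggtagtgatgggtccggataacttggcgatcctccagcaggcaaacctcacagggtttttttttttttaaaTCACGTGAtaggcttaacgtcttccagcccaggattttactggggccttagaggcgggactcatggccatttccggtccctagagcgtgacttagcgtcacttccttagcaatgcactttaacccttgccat
Ctsd: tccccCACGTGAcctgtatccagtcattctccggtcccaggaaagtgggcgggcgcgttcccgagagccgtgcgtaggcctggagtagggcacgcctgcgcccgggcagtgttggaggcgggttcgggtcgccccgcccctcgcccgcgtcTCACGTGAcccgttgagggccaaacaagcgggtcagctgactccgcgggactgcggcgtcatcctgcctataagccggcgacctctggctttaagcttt
Lamp1: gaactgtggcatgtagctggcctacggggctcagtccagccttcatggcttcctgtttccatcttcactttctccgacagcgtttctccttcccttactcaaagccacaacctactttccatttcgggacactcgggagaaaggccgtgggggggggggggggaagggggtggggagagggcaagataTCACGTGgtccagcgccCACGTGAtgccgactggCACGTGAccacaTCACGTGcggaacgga

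In Lamp1 the 4 matches lie between 62 and 16 bases before the start, in Ctsd they lie 245 and 99 bases before it, in Gla 228 and 195, and the single match of Atp6v1a lies 132 bases before it. Among these 4 genes, which were picked to differ in size of rise, Lamp1 had the most matches and the smallest change. Whether the number of matches goes with the change was not tested.

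Cholesterol handling moved in several branches. Synthesis genes rose in 18 of 23 cases. Sqle, squalene epoxidase, read 1.89, 1.9, 1.69 and 1.9 FPKM in the chow libraries and 7.98, 21.2, 17.9 and 7.14 in the high-fat libraries (log2 change 2.22 ± 0.46 (SE), adjusted p = 0.0016). Libraries 2 and 3 were the highest and every high-fat library lay above chow. Fdps, which makes farnesyl pyrophosphate, rose (log2 change 2.36, adjusted p = 0.00078). Fdft1, the squalene synthase that uses it, was the member that fell, at 31.1, 23.7, 27.6 and 22.4 FPKM in the chow libraries and 9.33, 10.4, 7.12 and 7.02 in the high-fat libraries (log2 change -1.53, adjusted p = 0.0022). Esterification and its reversal both rose: Soat1, which esterifies cholesterol for storage in droplets, read 6.4, 5.66, 6.36 and 5.7 FPKM in the chow libraries and 25.96, 84.3, 98.6 and 45.95 in the high-fat libraries (log2 change 3.03 ± 0.41 (SE), adjusted p = 0.000105). Nceh1, which hydrolyses the esters, rose from 3.72 to 5.2 to 24.01 to 94.9 FPKM (log2 change 3.43, adjusted p = 8.6e-05). Apoe, the apolipoprotein that carries cholesterol out of macrophages and adipocytes, fell (log2 change -1.15, adjusted p = 0.0021), and its neighbour Apoc1 fell further (log2 change -2.16, adjusted p = 0.0036).

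Of 20 Fc and efferocytosis receptor genes 13 rose and 2 fell (1 without chow library 1 or high-fat library 1 or 2). Cd300lb, a receptor for lipids of dying cells, read 4.04, 5.16, 4.33 and 4.1 FPKM in the chow libraries and 17.1, 79.1, 75.6 and 41.8 in the high-fat libraries (log2 change 3.11 ± 0.41 (SE), adjusted p = 8.6e-05). Fcer1g, the signalling chain shared by Fc receptors, rose from 40.8 to 54.8 to 107 to 458 FPKM (log2 change 2.32, adjusted p = 0.00054). Of 22 complement genes 8 rose and 5 fell. C3ar1, the receptor for the fragment C3a, read 11.2, 13.5, 15.3 and 11.5 FPKM in the chow libraries and 47.7, 182, 193 and 110.3 in the high-fat libraries (log2 change 3.09 ± 0.43 (SE), adjusted p = 0.00011). Itgb2, an integrin chain of complement receptors, rose (log2 change 3.11, adjusted p = 0.00018). C2, a soluble component of the cascade, fell from 79.7 to 98.9 to 11.4 to 22.4 FPKM (log2 change -2.32, adjusted p = 0.000165). Antigen presentation genes changed little, with 4 of 22 genes up, none down and a median of 0.05. The interferon list had 3 up and 1 down of 22; Irf5, a factor that drives inflammatory macrophages, was among the risers (log2 change 1.78, adjusted p = 0.0011).

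Inflammatory signalling rose unevenly. Of 21 chemokine genes 9 rose and 1 fell: Ccl3 read 0.41, 0.43, 0.2 and 0.5 FPKM in the chow libraries and 1.72, 13.04, 24.6 and 6.25 in the high-fat libraries (log2 change 2.73 ± 0.58 (SE), adjusted p = 0.0019), Ccl9 rose (log2 change 2.06, adjusted p = 0.00060), and Ccl24, an eotaxin made by resident macrophages, fell to 1.61 to 4.28 FPKM from 12.7 to 22.4 (log2 change -2.08, adjusted p = 0.000105). Of 13 chemokine receptor genes 3 rose and 2 fell (1 without chow library 1, 2, 3 or 4 or high-fat library 2, 3 or 4). Il1rn, the secreted antagonist of interleukin 1, read 1.14, 1.05, 1.13 and 0.58 FPKM in the chow libraries and 10.1, 139, 89.7 and 27 in the high-fat libraries (log2 change 4.51 ± 0.61 (SE), adjusted p = 0.00011; log2 change 5.18 without high-fat library 1). Il1b, the cytokine it blocks, read 0.36, 0.25, 0.17 and 0.46 FPKM in the chow libraries and 0.16, 0.43, 1.99 and 0.49 in the high-fat libraries and did not pass the threshold (log2 change 0.34, adjusted p = 0.71). The gene for Il6 was under the filter and not tested. Among 17 TNF family genes 11 rose and none fell, led by Tnfrsf11a, the receptor RANK (log2 change 2.52, adjusted p = 6.85e-05), and Tnfrsf21, a death-domain receptor (log2 change 2.05, adjusted p = 3.0e-05).

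Pattern recognition genes rose in 11 of 20 cases and those of the inflammasome in 12 of 17. Tlr13, a sensor of bacterial ribosomal RNA, read 2.52, 2.75, 3.53 and 2.31 FPKM in the chow libraries and 17.2, 59.8, 95.2 and 36.1 in the high-fat libraries (log2 change 3.57 ± 0.49 (SE), adjusted p = 0.000115). Tlr8, which senses RNA, rose as well (log2 change 2.197, adjusted p = 0.00016). Tlr4, the receptor for lipopolysaccharide and a proposed sensor of fatty acids, did not pass the threshold at 10.2, 11.5, 12.3 and 11.6 FPKM in the chow libraries and 10.8, 17.9, 17.9 and 14.3 in the high-fat libraries (log2 change 0.37, adjusted p = 0.31). Pycard, the inflammasome adaptor ASC, rose from 2.53 to 2.81 to 5.55 to 20.3 FPKM (log2 change 1.93, adjusted p = 0.00057). Casp1, its protease, rose (log2 change 1.74, adjusted p = 2.2e-05). Nlrp3, the best known sensor, did not pass the threshold (log2 change 0.44, adjusted p = 0.28). Txnip, which binds thioredoxin and responds to glucose, was the member that fell, from 1309 to 1501 to 314 to 407 FPKM (log2 change -1.97, adjusted p = 0.00027). In the kinase and NF-kB list, 11 of 28 rose and 3 fell. Ikbke, a kinase induced in obese fat, rose (log2 change 1.29, adjusted p = 0.0025). Nfkbia, the inhibitor that NF-kB itself induces, fell (log2 change -0.78, adjusted p = 0.0021).

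Of 27 collagen and collagen-processing genes 16 rose and none fell. Col1a1, of the main fibrillar collagen, read 56.5, 51.4, 71.3 and 49.6 FPKM in the chow libraries and 253, 409, 346 and 259.5 in the high-fat libraries (log2 change 2.43 ± 0.46 (SE), adjusted p = 0.00093). Col3a1 read 187, 179, 206 and 159 FPKM in the chow libraries and 484, 980.1, 850.5 and 611 in the high-fat libraries (log2 change 1.95 ± 0.43 (SE), adjusted p = 0.0027). High-fat library 1, the nearest to chow in lipid-associated macrophage genes, had the highest mean log2 level of the 4 over the collagen list, at 5.81, 5.53, 5.54 and 5.61 in the order of the replicates, against 4.62, 4.62, 4.75 and 4.54 on chow. Col12a1, a collagen on the surface of fibrils, rose (log2 change 1.69, adjusted p = 0.00035), and the basement membrane gene Col4a1 did not pass the threshold (log2 change 0.296, adjusted p = 0.47). Timp1, an inhibitor of matrix proteases, read 1.91, 3.49, 2.69 and 2.39 FPKM in the chow libraries and 18.1, 74.6, 93.7 and 30.9 in the high-fat libraries (log2 change 3.68 ± 0.71 (SE), adjusted p = 0.0010). Timp4, the inhibitor made by adipocytes, read 153, 218, 165 and 195 FPKM in the chow libraries and 88.1, 11.2, 13.9 and 29.1 in the high-fat libraries (log2 change -2.78 ± 0.70 (SE), adjusted p = 0.0056). Mmp3 (log2 change 2.71, adjusted p = 0.0014) and Adam12, a protease of fibroblasts (log2 change 3.05, adjusted p = 6.85e-05), rose. Over 27 genes of that list 14 rose and 1 fell.

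Signals that govern the matrix were mixed, 8 up and 7 down (4 without chow library 2) of 32. Postn, periostin, read 30.3, 32.3, 34.1 and 31.2 FPKM in the chow libraries and 109, 247, 229 and 114 in the high-fat libraries (log2 change 2.32 ± 0.47 (SE), adjusted p = 0.0016), and Tnc, tenascin C, rose (log2 change 2.01, adjusted p = 0.0025). Thbs1, thrombospondin 1, which activates latent TGF-beta, fell from 275, 415, 458 and 389 FPKM to 101, 103, 50 and 76.1 (log2 change -2.24 ± 0.48 (SE), adjusted p = 0.0023). Hypoxia and vessel factors fell in 8 and rose in 5 of 22 cases. Vegfa, the main vessel growth factor, read 53.5, 99.5, 58.97 and 91.8 FPKM in the chow libraries and 28.7, 10.8, 7.92 and 16.3 in the high-fat libraries (log2 change -2.29 ± 0.37 (SE), adjusted p = 0.000355). Pdgfb, which recruits pericytes (log2 change 2.05, adjusted p = 7.8e-05), and Angpt2, which loosens vessels (log2 change 1.88, adjusted p = 6.5e-05), rose. Hif1a, the hypoxia factor, rose slightly (log2 change 0.81, adjusted p = 0.0105). Bnip3 (log2 change -1.81, adjusted p = 0.0043) and Ndrg1 (log2 change -2.25, adjusted p = 9.85e-06), which it is known to induce, fell. The hypoxia-inducible droplet gene Hilpda rose by the values given above, and the targets of Hif1a were not counted as a set.

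Cell division genes rose in 22 of 25 cases (median 1.93). Mki67, present only in dividing cells, read 1.09, 0.75, 1.15 and 1 FPKM in the chow libraries and 6.96, 31.9, 18.02 and 12.1 in the high-fat libraries (log2 change 3.004 ± 0.50 (SE), adjusted p = 0.00041); libraries 2 and 3 were highest and library 1 lowest. Ccna2, cyclin A2, rose with it (log2 change 2.59, adjusted p = 0.00052). Of 16 genes of division inhibitors and senescence 7 rose and 3 fell. Cdkn1a, the inhibitor p21, read 15.6, 17.1, 13.7 and 16.97 FPKM in the chow libraries and 97.1, 66.3, 68.5 and 64.8 in the high-fat libraries (log2 change 2.14 ± 0.20 (SE), adjusted p = 4.9e-06). Gdf15, a stress hormone that lowers food intake, rose from 0.22 to 1.07 to 1.69 to 28.9 FPKM (log2 change 2.56, adjusted p = 0.0035; log2 change 3.18 without high-fat library 1). Cdkn2a, the senescence marker p16, did not pass the threshold (log2 change 0.49, adjusted p = 0.12; adjusted p = 0.029 without high-fat library 1).

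Of 24 unfolded protein and integrated stress genes 11 rose and 6 fell. Sdf2l1 (log2 change 1.98, adjusted p = 0.0018) and Hspa5, known as BiP (log2 change 1.28, adjusted p = 0.0021), both of the endoplasmic reticulum, rose. Asns, asparagine synthetase, read 72.9, 76.4, 87.8 and 90.6 FPKM in the chow libraries and 17.5, 18.02, 12.1 and 20.2 in the high-fat libraries (log2 change -2.22 ± 0.22 (SE), adjusted p = 9.4e-06), and Chac1, which degrades glutathione, fell (log2 change -2.17, adjusted p = 1.8e-05). Atf3, a stress-induced factor, read 2.6, 3.69, 2.72 and 3.39 FPKM in the chow libraries and 22.1, 87, 102 and 57.4 in the high-fat libraries (log2 change 3.86 ± 0.37 (SE), adjusted p = 7.9e-06). Atf4 itself, which drives Asns and Chac1 under amino acid shortage, did not pass the threshold (log2 change 0.52, adjusted p = 0.12; adjusted p = 0.031 without high-fat library 1). Immediate-early genes, which are induced quickly by many stimuli, rose in 7 of 20 cases (4 without high-fat library 2), Egr2 most (log2 change 2.91, adjusted p = 0.0105).

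Iron, sphingolipid and prostaglandin genes gave smaller groups. Slc11a1, the iron exporter of the phagosome, read 10.5, 13.8, 13.9 and 13.3 FPKM in the chow libraries and 35.1, 127, 174 and 63.3 in the high-fat libraries (log2 change 2.62 ± 0.46 (SE), adjusted p = 0.000585), and Ftl1, the ferritin light chain, rose (log2 change 1.57, adjusted p = 0.0069), while Trf, transferrin, fell (log2 change -1.51, adjusted p = 0.0145; adjusted p = 0.052 without high-fat library 3). S1pr2, a receptor for sphingosine phosphate (log2 change 2.04, adjusted p = 0.00086), and Acer3, a ceramidase (log2 change 2.02, adjusted p = 0.00011), rose, with 10 of 28 up and 2 down. Hpgds, the macrophage and mast cell synthase of prostaglandin D2, read 1.68, 2.02, 1.7 and 2.41 FPKM in the chow libraries and 8.08, 41.8, 37.7 and 33.3 in the high-fat libraries (log2 change 3.19 ± 0.39 (SE), adjusted p = 4.4e-05), and Tbxas1, thromboxane synthase, rose (log2 change 2.05, adjusted p = 0.00016). Pla2g2d, a phospholipase of resolving immune cells, fell (log2 change -1.88, adjusted p = 0.00051). Ptgs2, which encodes cyclooxygenase 2, was under the filter and not tested.

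Apart from the genes above, those with the largest changes included some whose place in fat is less familiar. Ubd, a ubiquitin-like modifier, read 1.21, 1.25, 1.86 and 0.99 FPKM in the chow libraries and 110.1, 55.3, 50.6 and 74.8 in the high-fat libraries (log2 change 4.93 ± 0.38 (SE), adjusted p = 1.7e-06), and high-fat library 1 was the highest. Slc5a7, the choline transporter of cholinergic nerves, read 0.11, 0.52, 0.1 and 0.35 FPKM in the chow libraries and 76.3, 23.7, 11.1 and 64.04 in the high-fat libraries (log2 change 4.8 ± 0.52 (SE), adjusted p = 1.9e-05), in the order of libraries 1, 4, 2 and 3 that the adipocyte markers follow. Tm4sf19, a membrane protein known from osteoclasts, was instead highest in libraries 2 and 3, at 0.47, 0.64, 1.05 and 1.14 FPKM in the chow libraries and 16.5, 95.5, 65.1 and 37.1 in the high-fat libraries (log2 change 4.65 ± 0.46 (SE), adjusted p = 9.1e-06). Rnf128, a ubiquitin ligase, rose to 10.6, 53.7, 137 and 26.99 FPKM from 1.08, 0.56, 0.48 and 0.48 (log2 change 4.6, adjusted p = 0.00305; log2 change 5.19 without high-fat library 1 and log2 change 3.999 without high-fat library 3). Among the falls, Mycl, a relative of the Myc factor, read 26.5, 34.2, 30.9 and 38.7 FPKM in the chow libraries and 1.67, 0.81, 0.68 and 1.5 in the high-fat libraries (log2 change -3.97 ± 0.36 (SE), adjusted p = 4.4e-06). Retnla, a resistin-like protein of alternatively activated macrophages, read 946, 859, 871 and 702 FPKM in the chow libraries and 267, 75.7, 13.8 and 102 in the high-fat libraries (log2 change -3.49, adjusted p = 0.0028; log2 change -4.101 without high-fat library 1 and log2 change -2.71 without high-fat library 3). Acta1, the actin of skeletal muscle, fell from 106, 219, 116 and 263 to 7.45, 4.9, 7.38 and 13.4 FPKM (log2 change -4.22, adjusted p = 0.0010). The other skeletal muscle genes read, Ckm, Myh4, Mylpf and Tnnt3, lay under 1 FPKM in all 8 libraries. Mup7, at 54.2, 26.7, 13.5 and 5.27 FPKM on chow and 3.06, 0, 0 and 0 on the high-fat diet, belongs to a cluster of near-identical major urinary protein genes, so its reads may stem from several of them. In Acta1, Mycl and Mup7 the chow WT-labelled libraries lay above all others of both labels. Chow KO-labelled fat read 2.11 to 28.7 FPKM for Acta1, 4.21 to 16.6 for Mycl and 0.63 to 3.16 for Mup7. In KO-labelled fat the log2 change with diet was 1.04, -1.64 and -1.15. The interaction with the label, taken up below, did not pass the threshold in them (limma adjusted p = 0.079, 0.079 and 0.30).

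The high-fat libraries differed more among themselves than the chow libraries did. The standard deviation of log2(FPKM + 1) was larger in the high-fat group for 83.8% of the tested genes, with a median of 0.259 against 0.118. Over the 3121 genes that rose, the median distance from the chow mean was 0.51 in high-fat library 1, 1.05 in library 2, 1.01 in library 3 and 0.84 in library 4. Library 1 was the nearest of the 4 to chow in 74.9% of those genes. Over the 2183 genes that fell, the distances were -0.65, -0.88, -1.02 and -0.61, and library 3 was the farthest from chow in 57.6%. Libraries 2 and 3 both lay beyond libraries 1 and 4 in 1967 of the genes that rose and 1323 of those that fell, and the reverse held in 318 and 114. These figures describe the genes the test picked and are given without a test.

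**Figure D3:**
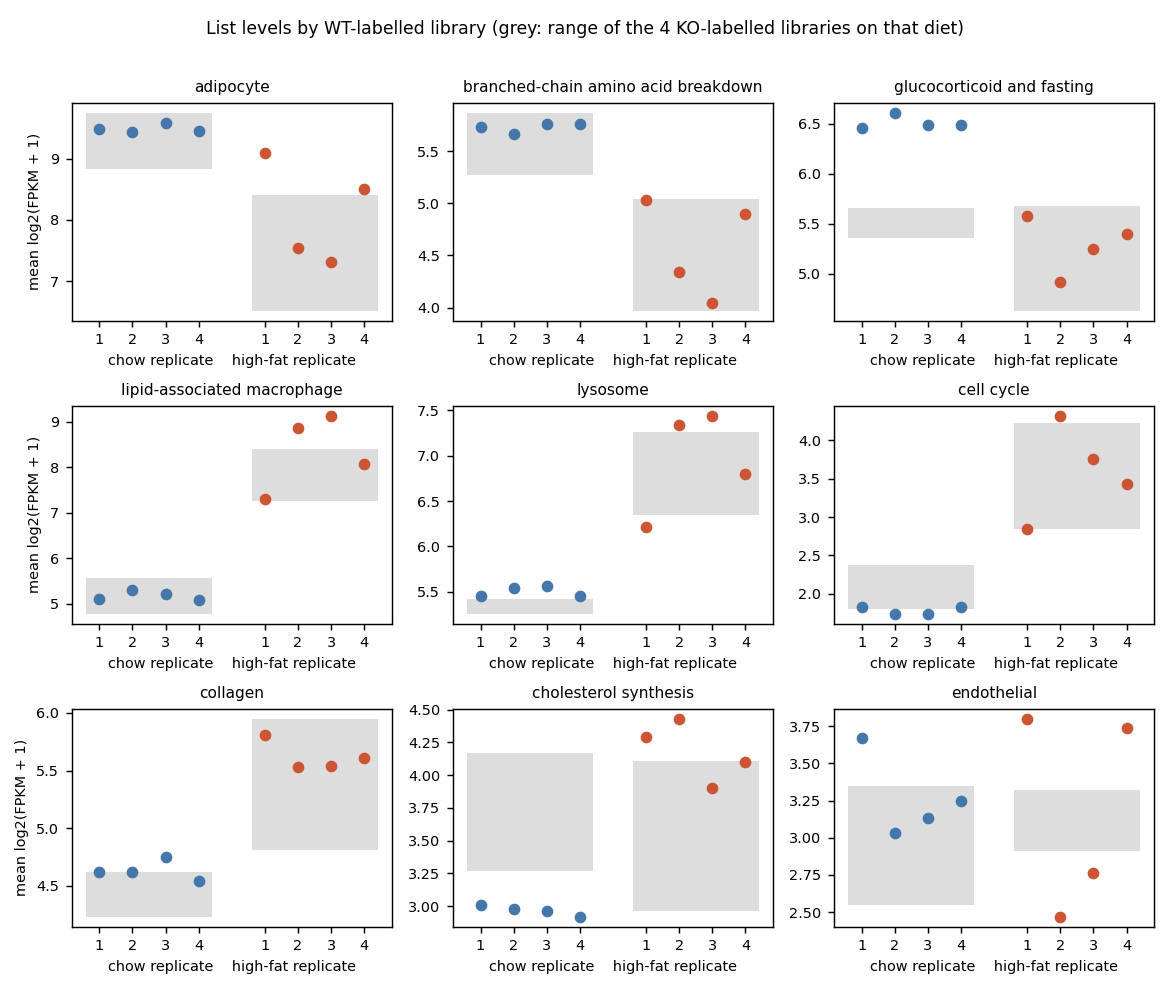
Mean log2(FPKM + 1) over the tested members of 9 gene lists in each of the 4 chow and 4 high-fat WT-labelled libraries, by replicate number; grey bands span the 4 chow and the 4 high-fat KO-labelled libraries. High-fat libraries 2 and 3 are lowest in adipocyte and highest in lipid-associated macrophage and cell cycle genes, whereas collagen and cholesterol synthesis genes are high in all 4.

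Not every group followed that order. Adipocyte genes had mean log2 levels of 9.09, 7.54, 7.31 and 8.51 in the 4 high-fat libraries, against 9.49, 9.43, 9.58 and 9.45 on chow, and those of fatty acid oxidation had 5.69, 5.28, 5.02 and 5.80. Lysosomal genes had 6.21, 7.34, 7.44 and 6.80, against 5.46, 5.54, 5.57 and 5.45 on chow. Cholesterol synthesis genes had 4.29, 4.43, 3.90 and 4.10 against 3.01, 2.98, 2.96 and 2.92, so that library 1, the nearest to chow in lipid-associated macrophage genes, was the highest there after library 2. Glucocorticoid and fasting genes had 5.58, 4.92, 5.25 and 5.40 against 6.46, 6.61, 6.49 and 6.49, with all 4 libraries about 1 unit or more below chow. Of the 59 lists, 17 had all 4 high-fat means above all 4 chow means and 12 had them all below.

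The KO-labelled libraries show where the chow WT-labelled mice stand. In 1862 of the 5304 genes that changed, or 35.1%, all 8 high-fat libraries of both labels lay on 1 side of all 8 chow libraries. In 607 of the changed genes, or 11.4%, the 4 chow WT-labelled libraries lay apart from the other 12. They were the highest of all in 273 and the lowest in 334. The diet difference in those genes also separates chow WT-labelled from chow KO-labelled fat. Over all 12667 tested genes, the split by diet held in 1903 and the chow WT-labelled libraries lay apart in 642. The changed genes were picked for a diet difference in WT-labelled fat, which favours both patterns. Their shares therefore describe that choice. The interaction of diet with label, tested in the same limma model, passed an adjusted p of 0.05 in 37 genes, or 0.292% of those tested, and reached an unadjusted p under 0.05 in 1284. Without any 1 of the 4 chow WT-labelled libraries it passed in 12 to 21 genes, and without 3 KO-labelled libraries that hold epididymal RNA in 65. Of the 37 genes, 28 had fallen with the diet in WT-labelled mice, 5 had risen and 4 had not passed the threshold, and in 26 the chow WT-labelled libraries lay apart from all others. The interaction itself picks out genes in which 1 group stands apart, so the count of 26 describes that choice and is not separate evidence.

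Eif4ebp3, a translation repressor, was the clearest of them. It read 65.99, 109, 73.4 and 96.7 FPKM in the chow libraries and 2.69, 3.33, 4.66 and 2.66 in the high-fat libraries of WT-labelled mice, 5.68 to 7.22 in the chow KO-labelled libraries and 3.18 to 3.69 in the high-fat KO-labelled ones; the WT change differed from the KO change by -3.61 ± 0.23 (SE) (adjusted p = 1.85e-06). Thbs1 fell with the diet in WT-labelled mice by the values above, but lay at 4.89 to 36.4 FPKM in chow KO-labelled and 41.6 to 94.3 in high-fat KO-labelled fat, a change of 2.25 in the opposite direction (interaction -4.48 ± 0.69 (SE), adjusted p = 0.011). Arrdc3, an arrestin-domain protein, read 102, 141, 121 and 126 FPKM in the chow libraries and 18.96, 17.01, 13.8 and 20.7 in the high-fat libraries and 18.7 to 42.6 in chow KO-labelled fat (interaction adjusted p = 0.0028). Cebpd, a factor of early adipogenesis that glucocorticoids induce, read 36.8, 48.02, 37.9 and 55.4 FPKM in the chow libraries and 11.4, 7.46, 9.82 and 9.7 in the high-fat libraries and 9.11 to 21.6 in chow KO-labelled fat (interaction adjusted p = 0.019, past the threshold in 6 of the 8 fits that leave out 1 library). Cyp27a1, which oxidises cholesterol, read 53.1, 48.3, 42.4 and 49.2 FPKM on chow, 11.5, 11.8, 8.88 and 14.9 on the high-fat diet and 17.3 to 25.6 in chow KO-labelled fat (interaction adjusted p = 0.0079). Chac1 lay at 11.1, 15.2, 12.9 and 14.7 FPKM in chow WT-labelled and 3.08 to 4.17 in chow KO-labelled fat (interaction adjusted p = 0.020, past it in 5 of those 8 fits). Dhcr7, the last step of cholesterol synthesis, rose in both labels but more in WT-labelled mice, 2.37 against 0.99 with adjusted p = 0.00085 in KO-labelled mice (interaction adjusted p = 0.027, past it in 1 of the 8 fits). Nnt had the next smallest limma interaction adjusted p after Eif4ebp3 (0.00102). It read 25.7 to 29.2 FPKM in chow and 7.75 to 10.6 in high-fat WT-labelled fat. In KO-labelled fat it read 6.91 to 8.56 on chow and 6.5 to 9.41 on the high-fat diet. The labels give no strain, and whether strain differed between the groups was not tested. Nnt is left out of the counts over named genes below.

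**Figure D4:**
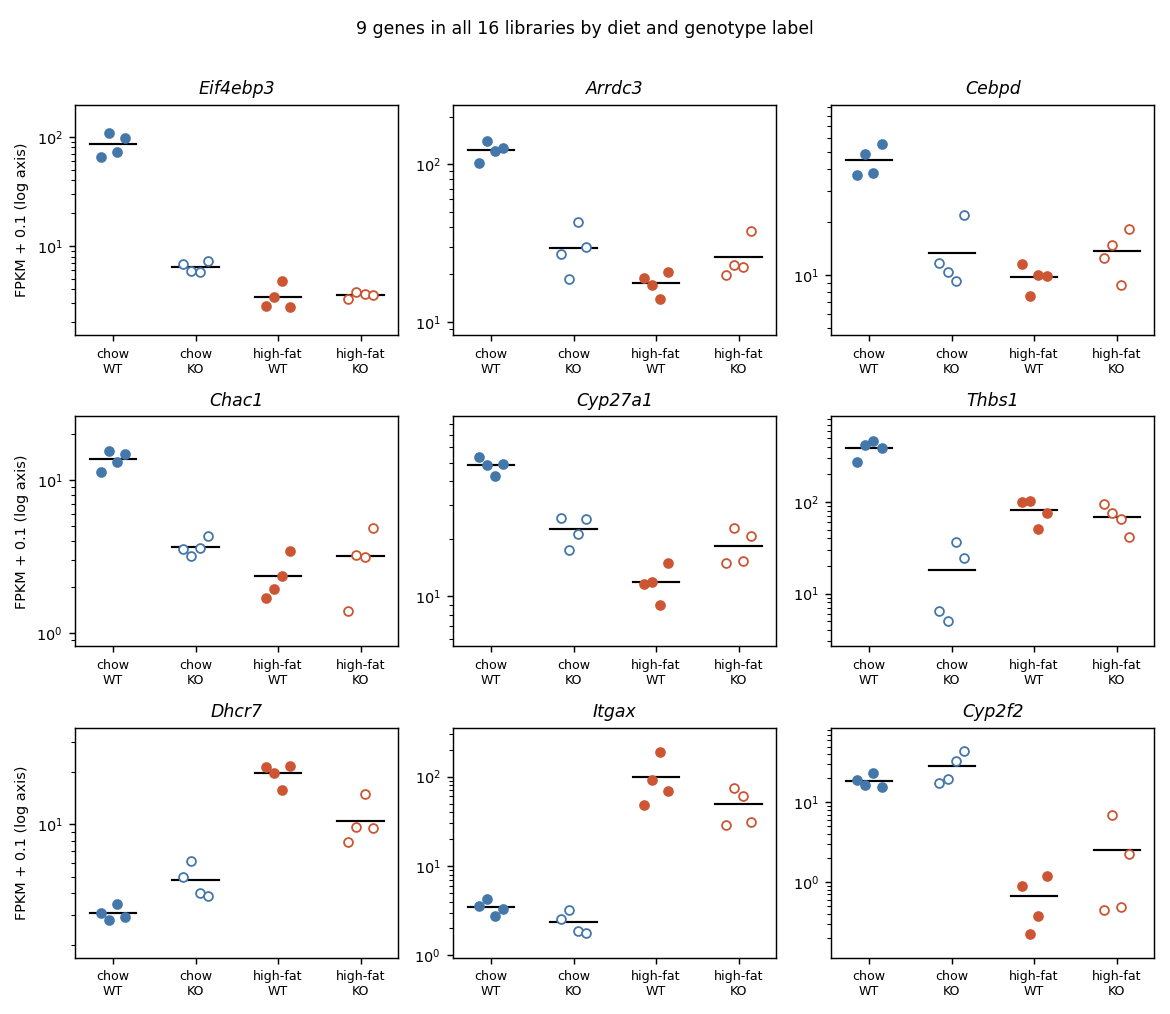
FPKM on a log axis (FPKM + 0.1) of 9 genes in all 16 libraries, by diet and genotype label, 1 point per library with the group mean as a bar. In Eif4ebp3, Arrdc3, Cebpd, Chac1, Cyp27a1 and Thbs1 the chow WT-labelled libraries lie above the other 12, and in Dhcr7 below them. In Thbs1 the chow KO-labelled libraries are the lowest, and in Itgax and Cyp2f2 the 2 diets part in both labels.

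Lists differed in where the chow KO-labelled libraries lay. Glucocorticoid and fasting genes had mean log2 levels of 6.46, 6.61, 6.49 and 6.49 in chow WT-labelled fat, 5.36 to 5.66 in chow KO-labelled fat and 4.63 to 5.68 in high-fat KO-labelled fat, so that chow KO-labelled libraries overlapped the high-fat ones. Cholesterol synthesis genes, at 3.01, 2.98, 2.96 and 2.92 in chow WT-labelled fat, lay at 3.27 to 4.17 in chow KO-labelled fat and at 2.96 to 4.11 in high-fat KO-labelled fat. For lipid-associated macrophage genes the chow groups overlapped, 5.10, 5.30, 5.21 and 5.08 against 4.78 to 5.56, and the high-fat groups lay at 7.30, 8.85, 9.13 and 8.08 and 7.26 to 8.41. For lysosomal genes the chow KO-labelled libraries, at 5.26 to 5.42, lay just below the chow WT-labelled ones. Inmt, a methyltransferase, and Fam13a, a gene tied to fat distribution, did not pass the interaction threshold (adjusted p = 0.31 and 0.37). Inmt read 497, 399, 322 and 398 FPKM in chow WT-labelled and 79.6 to 145 in chow KO-labelled fat, and Fam13a read 370.2, 326, 417 and 345 and 56.96 to 239, with high-fat levels of 16.2, 4.53, 3.37 and 36.4 and 15.6, 5.4, 5.94 and 13.3 in WT-labelled mice.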

How the data were processed

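The authors deposited 1 table of gene FPKM for 16 libraries of epididymal fat, 4 per diet and genotype label; per the submitters' processing notes, STAR 2.7 and the build GRCm38.p6 (mm10) were used. How the FPKM were computed is not stated there, and gene FPKM hide the absolute read depth, so no counting error is set on a value. Rows with an Entrez number (20101) were used as genes, 14408 circular RNA entries were not, and 1 blank row was dropped.

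The test was limma 3.58.1 (R 4.3.3) on log2(FPKM + 1), with all 16 libraries in 1 fit of 4 group means, moderated variances with a trend, a filter of at least 1 FPKM in at least 4 libraries, and Benjamini-Hochberg adjustment. The fit was checked on simulated data with the same spread in all groups and few changed genes. That check does not cover the unequal spread or the many changes seen here. Promoters are RefSeq's, build GRCm38.p6.

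The comparison and the 59 gene lists (1195 symbols, 1193 with an entry) were chosen with earlier results of these data known. The genes named are members fixed by name in each list, up to 4 called members per list with the largest changes, and the 15 largest rises and 15 largest falls without overlap between groups, predicted genes left out. The labels do not say that libraries of 1 group are from separate litters, so p-values measure the spread between these libraries. The replicate numbers did not pair the libraries and were not used as a block. Alternatives covered the scaling, pseudocount, filter, variance trend, array weights, the KO-labelled libraries and each WT-labelled library. A few genes that the rule names are not reported here.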

Additional observations from a re-analysis of the deposited data

Results flagged for a closer look

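In 395 groups of 4 libraries, chow and high-fat for each gene named whose values were not all equal, 22 (5.57%) held a library whose gap to its nearest neighbour was larger, as a share of the group's range, than Dixon's critical value allows. Chance gives about 1 in 20 groups. Of the 22, 17 lay in the chow group and 8 of those in chow library 1.

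In chow library 1 the highest values of the group were Apoc1 at 328 FPKM, Ccl24 at 22.4, Crisp1 at 27.1, Ptgs2 at 1.21, Rnf128 at 1.08, Suclg2 at 26.8 and Ucp1 at 0.97, and Pnpla2 was lowest there at 1516. Chow library 2 was highest for Cidec at 2998 FPKM. Chow library 3 was highest for Adipoq at 4573 FPKM and for Rbp4 at 643, and lowest for Slc2a3 at 8.56 and Sqle at 1.69. Chow library 4 was highest for Ftl1 at 1750.3 FPKM and for Ckm at 0.05, and lowest for Il1rn at 0.58 and Itgb2 at 23.1.

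In the high-fat group 5 genes had such a library. Cdkn1a was highest in library 1 at 97.1 FPKM against 64.8 to 68.5 in the others, Mup7 was highest there at 3.06 with the others at 0, Myh4 was highest there at 0.06, Hmox1 was highest in library 3 at 632, and Lcn2 was highest there at 121.2.

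The diet change differed between WT-labelled and KO-labelled mice, by the interaction term of the limma model with Benjamini-Hochberg adjustment, in 7 of the genes named. The WT change minus the KO change on the log2 scale was -2.55 for Arrdc3, -2.16 for Cebpd, -1.94 for Chac1, -1.68 for Cyp27a1, 1.38 for Dhcr7, -3.61 for Eif4ebp3 and -4.48 for Thbs1.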

How the results depend on the processing

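A minimum change of 2-fold left 2059 genes, 1291 higher and 768 lower, against 5304, 3121 and 2183; every other alternative kept these counts within 1.5 times, and leaving out 1 library gave 4164 to 5811 in all, 2439 to 3535 higher and 1630 to 2276 lower. The replicate number of the labels was tried as a block in the 8 WT-labelled libraries alone. This replicate block gave 5238 genes, 2979 higher and 2259 lower, against 6280 in the same 8 libraries with no block. Relative to the main fit, the block changed the call of 6 named genes (4 lost, 2 gained). The 8 libraries with no block changed 3 relative to it (all gained). Same-numbered chow and high-fat libraries did not deviate together (correlations of -0.035, -0.076, 0.017 and 0.083). The interaction of diet and label, at 37 genes, passed in 418 with array weights, in 65 without 3 KO-labelled libraries with epididymal genes (chosen after seeing the data), and in 12 to 34 without 1 library; the cause was not tested.

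Of 165 named genes past the threshold, 152 stayed past it in every alternative that tested them, the 2-fold minimum aside, and no named gene reversed. FPKM give no counts, so depth limits weak genes by an unknown amount, and the table gives 4 libraries a group.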
